A study of Mus musculus with 4 samples.

Results

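The myosin heavy chain locus of the mouse heart was followed through 5 genes, the alpha and beta cardiac heavy chains Myh6 and Myh7, the related heavy chain Myh7b, and the RNAs Mhrt and Gm31251, which are transcribed from the opposite strand at the locus. The genes were chosen by their symbols, 5 of the 32285 genes in the count tables, and all 5 passed the minimum of 1000 unique molecular identifiers (UMIs, 1 per captured mRNA molecule). Visium spatial transcriptomics, in which each barcoded spot on a slide collects mRNA from the several cells lying over it, was applied to heart sections of 10 µm from adult ICR (CD1) mice after permanent ligation of the left anterior descending coronary artery, which causes myocardial infarction (MI). The mice were female and 12 weeks old by the methods. There was 1 section of 1 mouse on each of days 1, 4, 7 and 14, every mouse had an infarct, and no section of an uninjured or sham-operated heart was analysed here. The authors' counting on the mm10 genome gave UMIs per gene and spot. Spots with more than 1% hemoglobin UMIs were set aside, which left 7503 of 9102 spots.

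Muscle contraction is driven by myosin heavy chains, the motor proteins of the thick filament. Adult mouse ventricle uses mainly alpha myosin heavy chain, a fast motor, whereas beta myosin heavy chain is slower and is the main form of the fetal mouse ventricle and of slow skeletal muscle. The return of Myh7 in stressed adult cardiomyocytes, together with natriuretic peptide genes such as Nppa and Nppb, is a classic part of the fetal gene program, and thyroid hormone is known to raise Myh6 and to repress Myh7.

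On the GRCm38 build with the GENCODE vM21 annotation, Myh6 lies on the reverse strand of chromosome 14 at 54941921 to 54966927, and Myh7 lies on the same strand at 54970684 to 54994626, 3756 bases upstream of Myh6. Mhrt, a long noncoding RNA known to bind the chromatin remodeller Brg1 (Smarca4), lies on the forward strand at 54968678 to 54974349 and begins 1751 bases upstream of the annotated start of Myh6. It runs into the 3′ part of Myh7, and 484 of its 1214 exonic bases overlap Myh7 exons. Gm31251, a predicted antisense RNA with no role stated here, lies at 54979393 to 54991601, wholly inside Myh7, and 523 of its 1248 exonic bases overlap Myh7 exons. Myh7b, which encodes a slow-type myosin of heart and skeletal muscle, is elsewhere, on the forward strand of chromosome 2 at 155611212 to 155634307.

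**Figure D1:**
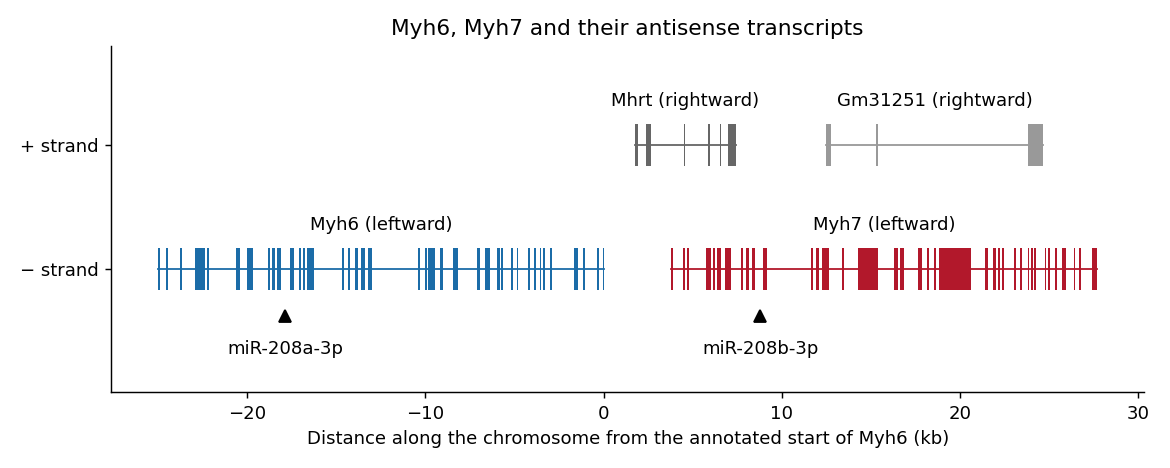
Map of the heavy chain genes with their strands and exons, drawn to scale along distance in kilobases. Myh6 and Myh7 sit head to tail, Mhrt begins in the gap of 3756 bases between them, and Gm31251 lies inside Myh7.

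Each of the 3 heavy chain genes carries a microRNA in an intron. They are shown because their seeds can be compared between the genes. The mature sequences from RefSeq (GRCm38.p6) are written 5′ to 3′, with the seed, bases 2 to 8, in capitals.
miR-208a-3p: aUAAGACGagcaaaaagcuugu
miR-208b-3p: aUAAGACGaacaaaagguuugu
miR-499-5p: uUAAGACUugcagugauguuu
The first, at chr14:54949072-54949093 on the reverse strand, is inside Myh6, and the second, at chr14:54975710-54975731 on the reverse strand, is inside Myh7. They have the same seed and match at 19 of 22 positions. The third is inside Myh7b at chr2:155622893-155622913 on the forward strand, and it has another seed. Their levels were not measured by this assay.

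The 250 bases before the RefSeq start sites of Myh6, Myh7 and Mhrt are shown because these transcripts differed in direction in the comparisons that follow. Capitals mark GGAATG, the reverse complement of CATTCC, which is the MCAT word that TEAD factors are known to bind in cardiac promoters.
Myh6 upstream: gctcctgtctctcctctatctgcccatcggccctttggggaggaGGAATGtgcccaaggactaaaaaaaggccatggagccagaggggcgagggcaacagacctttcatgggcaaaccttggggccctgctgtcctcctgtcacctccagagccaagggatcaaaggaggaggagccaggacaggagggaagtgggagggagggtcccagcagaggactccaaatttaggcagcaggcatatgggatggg
Myh7 upstream: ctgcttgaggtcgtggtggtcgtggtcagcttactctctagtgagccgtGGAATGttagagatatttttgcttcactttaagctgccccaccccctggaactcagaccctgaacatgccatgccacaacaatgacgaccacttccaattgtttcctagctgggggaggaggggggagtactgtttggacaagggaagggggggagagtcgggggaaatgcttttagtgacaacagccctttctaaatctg
Mhrt upstream: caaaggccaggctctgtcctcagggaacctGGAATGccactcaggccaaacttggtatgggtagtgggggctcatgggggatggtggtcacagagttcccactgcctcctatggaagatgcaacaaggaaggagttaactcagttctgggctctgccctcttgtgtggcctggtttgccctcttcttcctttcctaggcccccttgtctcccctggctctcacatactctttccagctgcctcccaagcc
The windows are chr14:54966608-54966857 on the reverse strand, chr14:54994627-54994876 on the reverse strand and chr14:54968537-54968786 on the forward strand. The GENCODE starts given earlier differ from these RefSeq starts for Myh6 and Mhrt. By GENCODE the Myh6 window lies inside Myh6, and the Mhrt window runs past the start of Mhrt, so both hold annotated transcribed sequence. For Myh7, 2 start sites were listed and the first was used. The word begins 206, 201 and 220 bases before the start site of Myh6, Myh7 and Mhrt, respectively. Searched on both strands, it occurs in 12.64% of 32851 windows of this kind, and the windows of Myh7b and Gm31251 do not hold it. A match in these letters is not evidence of binding.

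After that filter the sections held 11952107 UMIs (day 1), 14350489 (day 4), 9292678 (day 7) and 15713779 (day 14), with medians of 5188 to 8799 UMIs per spot. All 7 cardiomyocyte markers were found in every section, and 1 spot in all held 10 or more UMIs of the atrial genes Myl4, Myl7 and Sln. A group of 118 spots on day 7 held fast skeletal muscle mRNA. Between 1572 and 1918 spot barcodes are shared by any pair of sections, which use the same printed barcode set. With 1 mouse per day the spread between mice on a day is unknown, so no test between days was run, and intervals are 95% and cover counting error only.

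Levels are counts per 1000000 UMIs of the summed spots (CPM). In whole sections Myh6 varied less with day than Myh7. Myh6 was at 8191, 8070, 8385 and 10123 CPM on days 1, 4, 7 and 14. Myh7 was at 381, 707, 1300.5 and 375 CPM, and its order was day 14 and day 1 at a level that counting error does not separate, then day 4, then day 7. A spot holds several cells, so fewer cardiomyocytes in it and less of an mRNA in each of them cannot be told apart from a level. The sections also differed in other tissue, since 5 fibroblast marker genes summed to 1227, 7252, 7431 and 1576 CPM on days 1, 4, 7 and 14. The part of that difference in the order of Myh7, or of its ratio to Myh6 given further on, was not tested.

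Myh7b was at 29.2, 29.5, 51.8 and 34.2 CPM on the 4 days, highest on day 7 as Myh7 was. Mhrt was lowest on day 1 at 19.5 CPM, between 29.4 and 29.9 CPM on days 4 and 7, and highest on day 14 at 42.5 CPM. Gm31251 was at 37.5, 59.2, 32.6 and 64.3 CPM, with its lowest value on day 7. None of the 3 came near the level of Myh6 or Myh7 in any section.

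A ratio of both chains in the same spots needs no scaling between libraries. The Myh7 to Myh6 ratio was 0.0466 (0.0452 to 0.0480) on day 1, 0.0876 (0.0858 to 0.0894) on day 4, 0.155 (0.152 to 0.158) on day 7 and 0.0370 (0.0361 to 0.0380) on day 14. Myh7 thus made up 4.45%, 8.05%, 13.4% and 3.57% of the UMIs of both genes, and none of the 4 intervals overlapped. Transcripts of 6113 and 6230 bases for Myh6 and Myh7 are nearly equal in length, and the assay counts 3′ ends. Of the 50-base words in the last 500 bases, 42.8% for Myh6 and 51.0% for Myh7 also occur in the other transcript. For 90-base words the shares were lower, 27.5% for Myh6 and 36.5% for Myh7. Reads that lie wholly in such shared words could not be placed by sequence alone. How such reads, and reads of the antisense genes, were assigned is not given in the sources used here, and the absolute ratios are uncertain for that reason.

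Spots of each section were then ranked by their share of UMIs from Tnnt2 and Actc1, which encode cardiac troponin T and cardiac actin, and divided into 4 equal bands of 419 to 522 spots. A lower level of cardiomyocyte mRNA in the lowest band is built into this ranking, so the levels describe the spots and not the content of a cardiomyocyte. Myh6 in the lowest against the highest band was at 6849 and 7701 CPM on day 1, 3078 and 9957 on day 4, 1080 and 10821 on day 7, and 8561 and 10728 on day 14. Myh7 was at 263 and 562 CPM on day 1, 467 and 857 on day 4, 594 and 1126 on day 7, and 382 and 418 on day 14. Per total UMIs both were lower in the lowest band of every section.

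Per Tnnt2 UMI the picture differed. Tnnt2 is itself a ranking gene, so a low share of it in the lowest band is built in. That raises values per Tnnt2 UMI there, and these values are no independent view of the bands. Myh7 per 1000 Tnnt2 UMIs, lowest and highest band, was at 63.9 and 102 on day 1, 262 and 152 on day 4, 676 and 184 on day 7, and 103 and 69.7 on day 14, so it was higher in the lowest band on the last 3 days. Myh6 was at 1666 and 1394 on day 1, 1727 and 1761 on day 4, 1229 and 1766 on day 7, and 2299 and 1790 on day 14, with no common direction.

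Over the 4 sections, edgeR's quasi-likelihood test used libraries scaled by a trimmed mean and the section as a block. It found all 5 genes lower in the lowest band at a Benjamini-Hochberg adjusted p under 0.05. Of the 4767 genes tested, 28.4% were lower and 29.5% were higher, with a median log2 fold change of 0.00 (1354 lower and 1407 higher genes, or 936 and 1997 when scaled to total UMIs in place of TMM, edgeR's trimmed-mean scaling, which moved the median by 0.23 and kept all 5 calls). Myh6 fell by 1.34 on the log2 scale (SE 0.48, edgeR adjusted p = 0.0304) and Myh7 fell by 0.94 (SE 0.26, edgeR adjusted p = 0.0108). Myh7b fell by 1.21 (edgeR adjusted p = 0.00823), Mhrt fell by 1.3 (edgeR adjusted p = 0.014) and Gm31251 fell by 1.20 (edgeR adjusted p = 0.0342). Directions were the same in 4 of 4 sections except for Mhrt, which was lower in 3. The differences of Mhrt and Myh7b on day 1 and of Gm31251 on days 1 and 14 were within counting error. Since the bands were cut on cardiomyocyte genes, these calls do not show a change within cardiomyocytes.

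Several settings ended the calls. Of 19 alternatives, 13 kept the call of Myh6, 14 those of Myh7 and of Mhrt, 15 that of Myh7b and 12 that of Gm31251. Without day 4 none of the 5 passed, with log2 fold changes of -1.09 to -0.83 (edgeR adjusted p from 0.0912 to 0.219), and without day 7 only Myh7 did (-0.86, edgeR adjusted p = 0.0332), the others lying at -0.90 to -0.76. With only the compared bands in the fit none passed, at -1.54 to -0.96 (edgeR adjusted p from 0.101 to 0.17). When spots were ranked on Tnnt2, Myh7 was at -0.51 (edgeR adjusted p = 0.0633), and when ranked on Tnni3, Myl2 and Mb it was at -0.05 (edgeR adjusted p = 0.913), while the other 4 genes kept their calls in both.

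The antisense RNAs were close to 0 in the lowest band of day 7. Mhrt counted 4 UMIs in the lowest band and 106 in the highest on that day, 2.73 against 38.2 CPM, a ratio of 0.0714 (0.0191 to 0.188). Gm31251 counted 2 and 130 UMIs, 1.36 against 46.8 CPM, a ratio of 0.0291 (0.00349 to 0.107). Myh6 was at 1080 against 10821 CPM in the same bands. Set against Myh6, Mhrt changed by a factor of 0.715 (0.191 to 1.89) and Gm31251 by 0.291 (0.0349 to 1.08). Both intervals included 1, so a fall of either antisense RNA beyond that of Myh6 was not detectable. On day 1 neither differed beyond counting error, with ratios of 1.06 (0.703 to 1.60) for Mhrt and 0.978 (0.722 to 1.32) for Gm31251. Between either middle band and the highest, 0.0% of genes were called by edgeR and by DESeq2, with 92 and 58 genes at an unadjusted edgeR p under 0.05 and 82 and 41 with DESeq2. No member passed in those comparisons, where log2 fold changes of the members lay between -0.12 and 0.12.

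The Myh7 to Myh6 ratio had no common direction along this ranking. From the lowest to the highest band it was 0.0383, 0.0349, 0.0400 and 0.0730 on day 1, the highest value standing in the band richest in Tnnt2 and Actc1. The 7 cardiomyocyte markers, which include both, summed to 39130, 49290.5, 51221 and 50694 CPM in these bands of day 1. By that sum the highest band was not the richest. On day 4 it was 0.152, 0.0821, 0.0798 and 0.0861, and on day 7 it was 0.550, 0.210, 0.147 and 0.104, a fall at each step. On day 14 it was 0.0446, 0.0322, 0.0368 and 0.0390.

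The log2 difference, lowest minus highest band, was -0.93, 0.82, 2.40 and 0.20 on days 1, 4, 7 and 14, with a mean of 0.62 ± 1.39 (SD, n = 4) and an exact two-sided sign-flip permutation p of 0.5. The smallest p that 4 sections allow is 0.13. Leaving out day 7 moved the mean to 0.03, and leaving out day 1 moved it to 1.14. The direction on day 1 turned with the ranking genes. Ranked on Tnnt2 alone the difference was above 0 in 4 of 4 sections (mean 1.51, exact p = 0.13), and ranked on Tnni3, Myl2 and Mb it was again above 0 in all 4 (mean 2.68, exact p = 0.13), whereas on Actc1 alone it was above 0 in 2 of 4 (mean 0.15, exact p = 0.75).

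**Figure D2:**
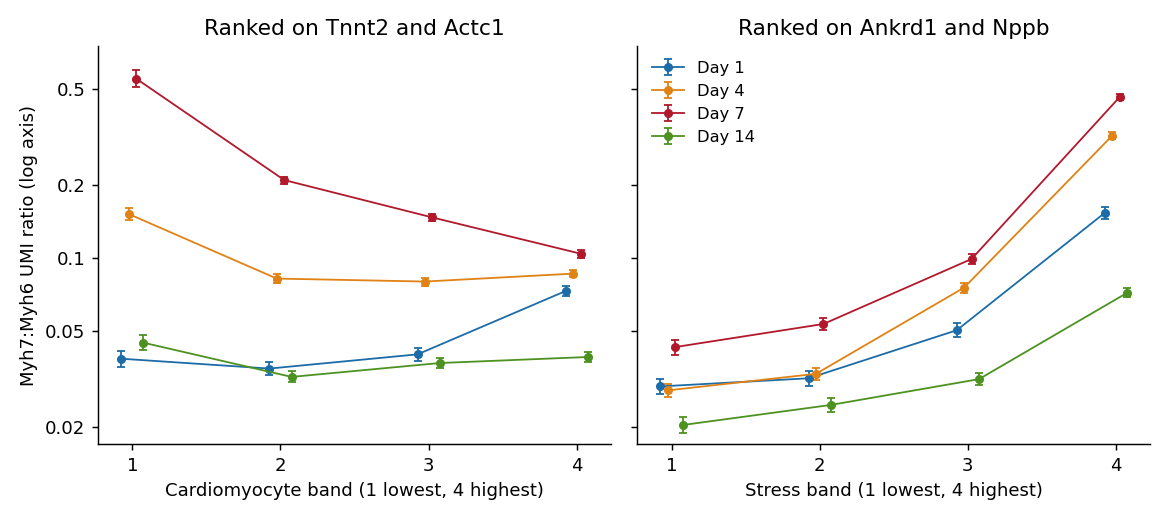
Myh7 to Myh6 UMI ratio on a log axis in 4 bands of spots of each section, by the share of Tnnt2 and Actc1 and by the share of Ankrd1 and Nppb, with 95% counting intervals. The ratio falls along the cardiomyocyte ranking on day 7 and rises on day 1, and it is highest in the top stress band of all 4 sections.

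Markers of some other cells were higher in the lowest cardiomyocyte band. The sum of 5 fibroblast genes, all 5 detected, was 1459 against 1342 CPM in the highest band on day 1, 22166 against 3310 on day 4, 27796 against 2334 on day 7 and 5713 against 921 on day 14. The 5 macrophage genes were at 581 against 516, 5526 against 799, 3987 against 531 and 1283 against 234 CPM on the 4 days. The 4 endothelial genes differed less, at 244 against 227, 262 against 191, 269 against 304 and 196 against 207 CPM. The 4 erythroid genes were at 1268 against 738, 1133 against 930, 1799 against 3311 and 2180 against 1584 CPM, lower only on day 7. On day 7 the lowest band also held 20467 CPM of 10 fast skeletal muscle genes, against 120 CPM in the highest. The 118 skeletal muscle spots had 380 CPM of Myh7 and 579 CPM of Myh6, with 0 UMIs of Gm31251. Without them the day 7 difference in the ratio was 2.04 in place of 2.40. The part of the other cells in these results was not tested.

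To read the locus against cardiomyocyte stress, the spots in the upper 3 cardiomyocyte bands were ranked again by their share of Ankrd1 and Nppb, a stretch-responsive cofactor and a natriuretic peptide, and divided into 4 equal bands of 314 to 391 spots. Per total UMIs the chains moved in opposite directions in every section (per Tnnt2 UMI, given further on, Myh6 did not fall on day 14). Myh7 in the lowest and the highest stress band was at 352 and 495 CPM on day 1, 302 and 1782 on day 4, 462 and 3414 on day 7, and 224 and 712 on day 14. Its fold, highest over lowest, was 1.41 (1.29 to 1.54) on day 1 and then 5.91, 7.39 and 3.18 in the sections of days 4, 7 and 14. The rise was steepest in the last step, since the band below the highest held 425, 699, 1039 and 322 CPM.

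Myh6 in the lowest and the highest stress band was at 11932 and 3225 CPM on day 1, 10636 and 5568 on day 4, 10785 and 7394 on day 7, and 10996 and 9932 on day 14. The fall was 3.70-fold on day 1, 1.91-fold on day 4, 1.46-fold on day 7 and 1.11-fold on day 14, so the highest band came closer to the lowest on each later day. Day 1 thus had the largest difference of Myh6 among the 4 sections and the smallest of Myh7. The bands are ranks within a section, however, and their span differed. Highest over lowest, Ankrd1 was 51.4, 11.8, 7.05 and 9.09 on days 1, 4, 7 and 14, and Nppb was 99.1, 32.1, 3.75 and 9.97. Nppb in the lowest band of day 7 (350 CPM) was above that in the highest band of day 14 (296 CPM). Folds of the members on different days therefore compare different ranges of the ranking genes.

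**Figure D3:**
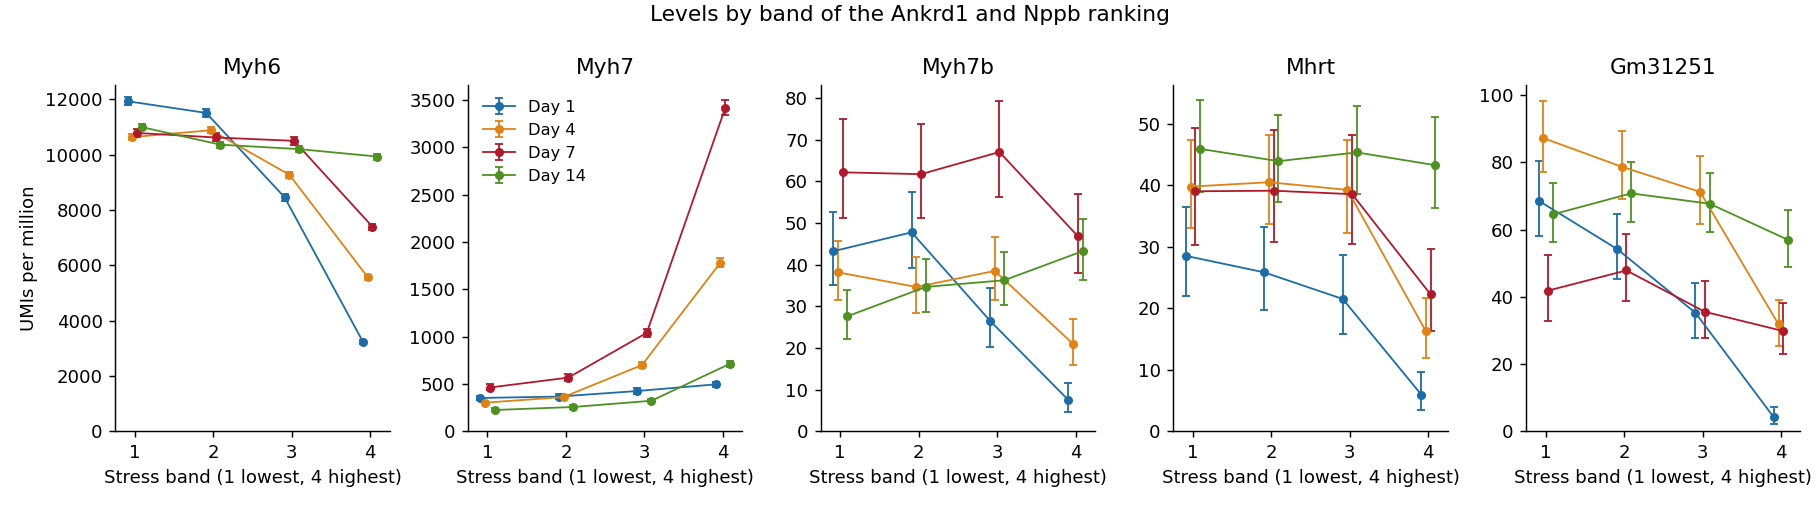
Level of each of the 5 genes in UMIs per 1000000 (CPM, axes from 0, different per gene) across stress bands, with 1 line per day and 95% Poisson intervals. Myh7 rises to 3414 CPM in the top band of day 7, whereas Myh6, Mhrt and Gm31251 are lower in the top band than in the lowest on every day per total UMIs, though not on day 14 per Tnnt2 UMI.

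Across sections Myh7 rose by 1.66 on the log2 scale (SE 0.29, edgeR adjusted p = 0.000631), a 3.17-fold increase seen in 4 of 4 sections, and 2.85% of the 4765 genes tested had a larger increase. The ranking gene Ankrd1 was the gene most like Myh7 over spots (median Spearman's rho of 0.52, though -0.06 on day 1, given further on). A rise of Myh7, and of its ratio to Myh6, is therefore partly built into this ranking. The test is no independent support for it, and all genes are no neutral background. Myh6 fell by 1.13 (SE 0.24, edgeR adjusted p = 0.00151), Mhrt fell by 1.17 (SE 0.26, edgeR adjusted p = 0.00242) and Gm31251 fell by 1.49 (SE 0.38, edgeR adjusted p = 0.00675), each in 4 of 4 sections, although the differences of Mhrt on day 14 and of Gm31251 on days 7 and 14 were within counting error. Myh7b did not pass, with a log2 fold change of -0.86 (SE 0.36, edgeR adjusted p = 0.0639). In this comparison 23.6% of genes were lower and 25.2% were higher, with a median log2 fold change of 0.04, and 3 of the 5 genes were lower and 1 was higher. Scaling to total UMIs moved the median of all genes by 0.31 and the calls from 1126 lower and 1203 higher genes to 560 and 2463, and the 4 called members kept their calls. Ranking all spots by stress, rather than those of the upper 3 bands, kept Myh7 (1.97, edgeR adjusted p = 0.0266) and lost Myh6 (-0.50, edgeR adjusted p = 0.63), Mhrt (-0.57, edgeR adjusted p = 0.598) and Gm31251 (-1.04, edgeR adjusted p = 0.438).

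**Figure D4:**
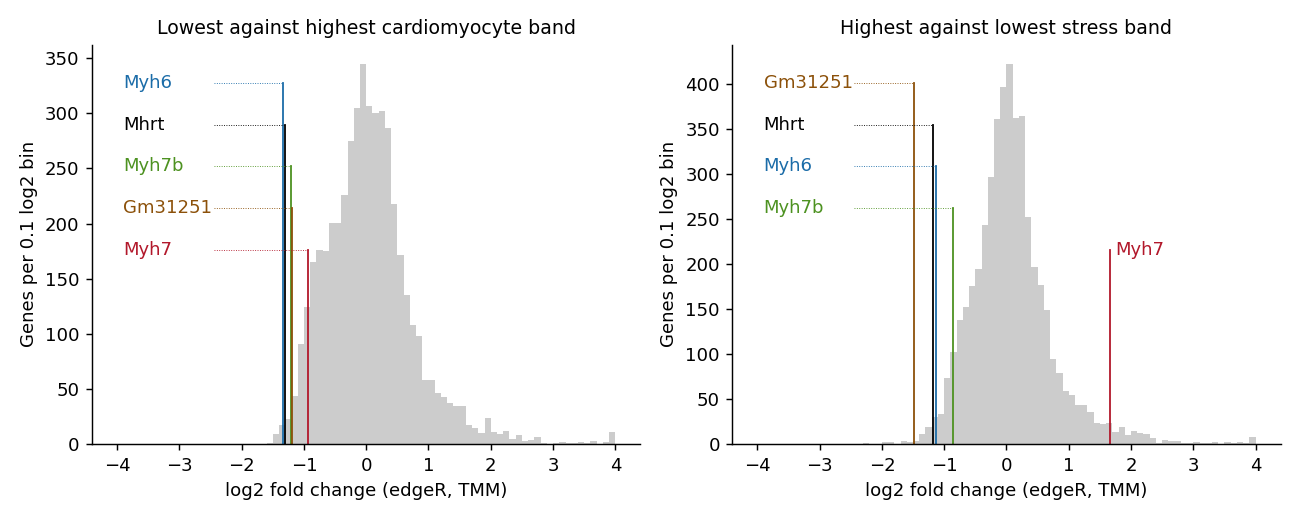
Number of tested genes per bin of log2 fold change in both comparisons, with the 5 members as coloured lines and genes beyond 4 in either direction drawn in the outer bins. Under stress Myh7 lies at 1.66 and Myh6, Mhrt and Gm31251 lie between -1.13 and -1.49, around a median of 0.04 for all genes.

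Both antisense RNAs fell, as Myh6 did, while Myh7, the gene they overlap, rose. Mhrt in the lowest and the highest stress band was at 28.5 and 5.97 CPM on day 1, 39.8 and 16.2 on day 4, 39.0 and 22.2 on day 7, and 45.9 and 43.2 on day 14. Its ratio to Myh6 changed by a factor of 0.774, 0.780, 0.831 and 1.04 on the 4 days, and each interval included 1. A change of that ratio was therefore not detectable at this depth.

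Gm31251 went from 68.6 to 4.1 CPM on day 1, from 87.2 to 31.8 on day 4, from 41.8 to 29.8 on day 7 and from 64.5 to 56.9 on day 14. Its ratio to Myh6 changed by a factor of 0.221 (0.108 to 0.407) on day 1 and 0.696 (0.540 to 0.888) on day 4, and by 1.04 and 0.977 on days 7 and 14, where the intervals included 1. Its call was lost without day 4 (log2 fold change -1.34, edgeR adjusted p = 0.0839).

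Myh7b went from 43.2 to 7.46 CPM on day 1, from 38.2 to 20.9 on day 4 and from 62.2 to 46.8 on day 7, and on day 14 from 27.6 to 43.2. The day 14 section was thus the only one of the 4 where it was higher under stress. Without that section its log2 fold change was -1.44 (edgeR adjusted p = 0.00467). The section is singled out here by its direction, so this p is no evidence of a fall. With all 4 sections Myh7b did not pass (edgeR adjusted p = 0.0639), and 6 of 21 alternatives called it.

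The Myh7 to Myh6 ratio rose along the stress ranking in every section. From the lowest to the highest band it was 0.0295, 0.0318, 0.0503 and 0.154 on day 1, and 0.0284, 0.0332, 0.0754 and 0.320 on day 4. On day 7 it was 0.0428, 0.0533, 0.0990 and 0.462, and on day 14 it was 0.0204, 0.0247, 0.0316 and 0.0717. The increase from the lowest to the highest was 5.21-fold, 11.3-fold, 10.8-fold and 3.52-fold, and most of it came in the last step.

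On the log2 scale the mean difference was 2.78 ± 0.82 (SD, n = 4), above 0 in 4 of 4 sections, with an exact two-sided sign-flip permutation p of 0.13, the smallest that 4 sections allow. Leaving out 1 section at a time gave means of 2.54 to 3.10. When the same spots were divided into 10 bands, the top band reached 0.186 on day 1, 0.434 on day 4, a ratio of 0.909 (0.872 to 0.948) on day 7 and 0.129 on day 14, and the lowest of the 10 lay between 0.0193 and 0.0433. The top band of day 7 was the one where both chains came closest to equal UMIs.

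Single spots were read where they held at least 10 UMIs of both chains together. Myh7 exceeded Myh6 in 9 of 1694 spots on day 1 (0.531%), 35 of 1400 on day 4 (2.50%), 126 of 1422 on day 7 (8.86%) and 3 of 1798 on day 14 (0.167%). In the top stress band of day 7 it did so in 95 of 341 spots (27.9%, exact interval 23.2% to 32.9%). The lowest cardiomyocyte band of that day held 462 spots. Of these, 55 reached 10 UMIs, and where Myh6 is low that limit favours spots rich in Myh7. Myh7 exceeded Myh6 in 25 of these 55 spots (45.5%), or in 21 of 51 without the skeletal muscle spots. In the lowest stress band there was no such spot in any section, and a count of 0 there allows a share of up to 0.850%, 0.958%, 0.888% and 0.798% on the 4 days. The interval and these limits treat the spots of 1 section as independent, which neighbouring spots need not be. The median spot had 3.45%, 4.44%, 5.62% and 2.53% of these UMIs from Myh7, and the median spot of the top stress band had 9.09%, 23.1%, 29.3% and 4.31%.

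**Figure D5:**
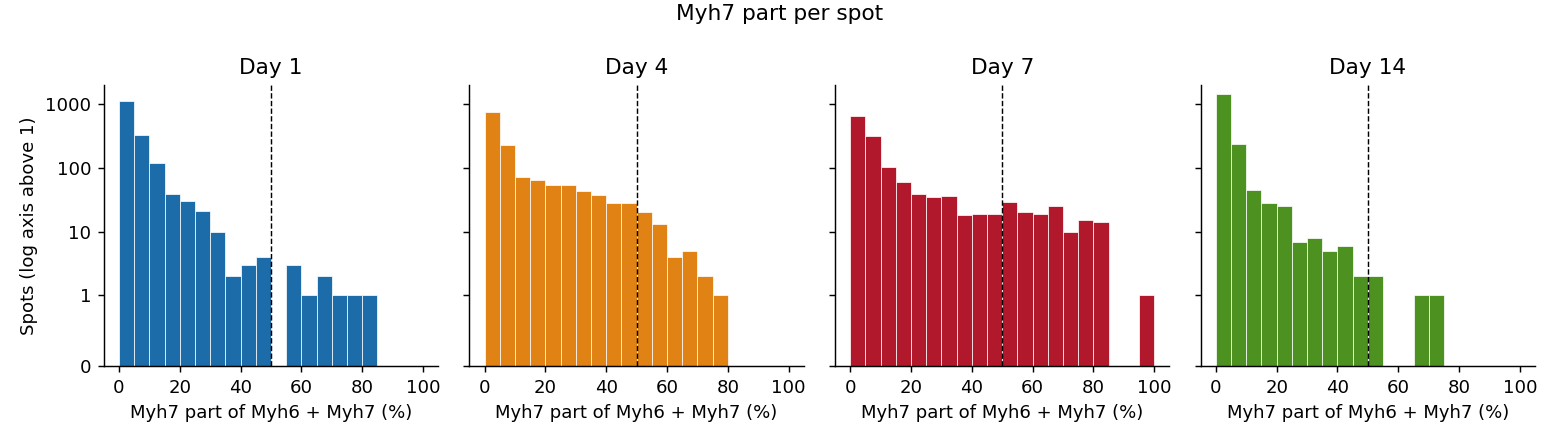
Number of spots (log axis above 1) in bins of 5 percentage points of the share of Myh6 and Myh7 UMIs that came from Myh7, by day, in spots with at least 10 such UMIs, with a dashed line at 50%. Medians lie between 2.53% on day 14 and 5.62% on day 7, and day 7 has the most spots above 50%, 126 in all.

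Cardiomyocyte markers changed along the stress ranking too, in different directions. Actc1 was higher in the highest than in the lowest stress band of every section. It went from 7813.5 to 11743 CPM on day 1 and from 7193 to 8975 on day 4. On days 7 and 14 it went from 8928 to 9695 and from 10491 to 11595 CPM. Tnnt2 was lower in the highest band of every section. The sum given next, which includes both, therefore does not show whether the highest band held fewer cardiomyocytes. The sum of the 7 cardiomyocyte markers, all 7 detected, was 58532 CPM in the lowest and 37245 CPM in the highest stress band on day 1, 48843 and 31123 on day 4, 55183 and 46138 on day 7, and 54213 and 52866 on day 14. Fibroblast genes, all 5 detected, went from 810 to 1566 CPM on day 1, from 1032 to 9890 on day 4, from 1334 to 8283 on day 7 and from 685 to 1452 on day 14. The 5 macrophage genes went from 230 to 740, 290 to 1706, 375 to 1088 and 228 to 350 CPM. The part of these cells in the members' changes was not tested.

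Set against Tnnt2 in the same spots, the rise of Myh7 remained in every section. Tnnt2 itself was lower in the highest stress band of every section, from 5993 to 4372 CPM on day 1, which raises values per Tnnt2 UMI there. Actc1 rose on day 1 from 7813.5 to 11743 CPM, in proportion no less than Myh7, from 352 to 495 CPM. Set against Actc1, Myh7 thus did not rise on day 1, and its rise on that day depended on the denominator. Per 1000 Tnnt2 UMIs, Myh7 went from 58.7 to 113 on day 1, from 60.1 to 398 on day 4, from 87.5 to 673 on day 7 and from 39.8 to 144 on day 14. Myh6 per 1000 Tnnt2 UMIs went from 1991 to 738 on day 1, from 2118 to 1243 on day 4 and from 2044 to 1457 on day 7, but from 1948 to 2002 on day 14. The direction of Myh6 on day 14 thus depended on the denominator. The same holds for Mhrt, at 8.13 and 8.72 per 1000 Tnnt2 UMIs in the lowest and highest band of that day, and for Gm31251, at 11.4 and 11.5, and both differences are within counting error.

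Other genes of muscle and of the stress program place these values. Among 15 sarcomere genes, 12 were lower and none was higher in the top stress band, beside 23.6% and 25.2% of all genes. Their median was -0.59. The 3 that did not pass were Actn2 (-0.14), Tpm1 (-0.11) and Mybpc3 (0.00). These values rest on TMM scaling. Per total UMIs some of the 12 were higher in 1 or 2 of the 4 sections, and Tpm1 was higher in all 4. The lower genes included Tcap, a titin cap protein (-1.23, edgeR adjusted p = 0.00674), Tnni3, cardiac troponin I (-1.10, edgeR adjusted p = 0.000272), and Myl2, the ventricular regulatory light chain (-0.98, edgeR adjusted p = 0.000707). Of 10 tested genes of the fetal and stress program, 8 were higher and none was lower, beside 25.2% and 23.6% of all genes. Their median was 1.21. The ranking genes Ankrd1 and Nppb are stress genes themselves, so a rise of genes that vary with them is built into this ranking. The share over all genes is therefore no neutral background for this list. Nppa, the atrial natriuretic peptide, rose by 5.10 (edgeR adjusted p = 4.6e-05). Acta1, the skeletal actin of the fetal program, rose by 3.67 (edgeR adjusted p = 0.000311), more than Myh7 did.

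In the lowest cardiomyocyte band all 15 sarcomere genes were lower, beside 28.4% of all genes. Their median was -1.14, and that of the 5 members was -1.21. Of the 10 stress genes there, 2 were higher and 2 were lower, with a median of -0.26. Both counts lie under the 29.5% and 28.4% of all genes. Csrp3, a muscle LIM protein, fell by 1.20 (edgeR adjusted p = 0.0144) and Sprr1a, a stress-induced small protein, rose by 1.21 (edgeR adjusted p = 0.00145).

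Of 15 genes of thyroid hormone action, 7 had enough UMIs to be tested. In the top stress band 3 of the 7 were lower and none was higher, beside 23.6% and 25.2% of all genes. Their median was -0.30. Rxrg, a retinoid X receptor that pairs with thyroid hormone receptors, fell by 1.00 (edgeR adjusted p = 0.000972), and Thra, the main thyroid hormone receptor of the heart, was at -0.30 (edgeR adjusted p = 0.179). Per total UMIs Rxrg was lower in all 4 sections, and the other called genes were each lower in 2 and higher in 2. The count of 3 is thus not a fall shared by the sections. Of 28 transcriptional regulators of the locus, 16 were tested, and 3 were higher and 2 were lower, with a median of -0.15, so both counts lie under the 25.2% and 23.6% of all genes. Smarca4, the remodeller that Mhrt binds, rose by 0.41 (edgeR adjusted p = 0.0139), Purb, a repressor of Myh6, rose by 0.41 (edgeR adjusted p = 0.036), and Mef2a fell by 0.55 (edgeR adjusted p = 0.00228). Tead1, a factor that binds the MCAT word shown with the upstream sequences, was at 0.05 (edgeR adjusted p = 0.749).

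In the lowest cardiomyocyte band 3 of the 7 thyroid hormone genes were higher and 1 was lower, beside 29.5% and 28.4% of all genes. Their median was 0.21, and Rxrg fell by 1.28 (edgeR adjusted p = 0.00869). Of the 16 regulators there, 1 was higher and 4 were lower, with a median of -0.21, beside 29.5% and 28.4% of all genes, so neither count stands above the background. The higher one was Smarca4 (0.33, edgeR adjusted p = 0.0152), which thus rose in both comparisons. The lower ones included the cardiac factors Nkx2-5 (-0.90, edgeR adjusted p = 0.0228) and Gata4 (-0.80, edgeR adjusted p = 0.00738). Of 11 other myosin heavy chains, 3 were tested. Myh9, the non-muscle myosin, rose by 1.25 there (edgeR adjusted p = 0.00132) and by 1.3 in the top stress band (edgeR adjusted p = 0.000392), and the skeletal chains Myh1 and Myh2 are not read here, because the 10 fast skeletal genes, which include them, held 30982 UMIs on day 7 and 53, 96 and 79 UMIs on days 1, 4 and 14.

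The genes whose pattern over spots was most like each member were found by Spearman's rho within each section, over 1679 to 2086 spots that share a library and differ in depth, with no test. For Myh6 they were Mb, Tnni3, Myl2, Atp2a2 and Fabp3, genes of oxygen storage, contraction, calcium uptake and fatty acid transport, with medians over the 4 sections of 0.81 to 0.78. For Myh7 they were Ankrd1 (0.52), Clu (0.35), Nppa (0.32), Acta1 (0.32) and Des (0.31), and all 5 were weakly negative on day 1, from -0.10 to -0.04. For Mhrt, whose counts are sparse, the highest medians were 0.20 for Tnni3, mt-Co1 and Pln, and 0.19 for mt-Cytb and Myh6. Myh6 and Myh7 themselves had rho of 0.26, 0.02, 0.00 and 0.19 on days 1, 4, 7 and 14. All kept spots enter these values, and the spots differ in cardiomyocyte content. The values therefore do not show how the chains relate among spots rich in cardiomyocyte mRNA.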

How the data were processed

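The authors deposited raw UMI counts per gene and spot, made with Space Ranger 1.3.0 on mm10 for spots under tissue, without normalization (Seurat 4.1.1 is also listed in the submitters' processing notes). Antisense and shared-sequence handling is not given in the sources used here. The first section is day 1 in the labels and methods, which was used here, and day 2 in the study's results text.

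Spots with over 1% of UMIs from 8 hemoglobin genes were removed. Spots near the tissue edge were kept, because images were not used here. The 4769 genes with 1000 UMIs or more in those spots, less the ranking genes, were tested. Spots were ranked within a section and cut into 4 bands, and UMIs were summed per section and band into 16 libraries. These were fitted with edgeR 4.0.16 and limma 3.58.1 in R 4.3.3 (TMM, robust quasi-likelihood, section as block, Benjamini-Hochberg over all tested genes). The 4 mice were killed on different days. Each main fit had 9 residual degrees of freedom, pooled over all 4 bands of the 4 sections. An edgeR p is therefore not a measure of the spread of 1 comparison between mice. Standard errors are the log2 fold change over the square root of F. Tnnt2 and Actc1, and Ankrd1 and Nppb in the stress fit, were left out of the tested genes. Ratios were compared by exact sign-flip tests. Levels have exact Poisson and shares exact Clopper-Pearson 95% intervals, and the limit for a count of 0 is 3 counts.

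Named genes are the 5 members, the ranking genes, up to 5 genes per list with the largest changes at an adjusted p under 0.05 and 1 direction in 4 sections, and the 5 genes most like Myh6, Myh7 and Mhrt. Thra, Tead1, Actn2, Tpm1 and Mybpc3 (under stress) were named besides, after their values were seen. The members, lists and rankings were chosen with earlier results of these data known. Alternatives were DESeq2 1.42.0, total-UMI scaling, other filters, other ranking genes, other group numbers, no section block and each section left out. The scripts were tested on simulated counts.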

Additional observations from a re-analysis of the deposited data

Results flagged for a closer look

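The Myh7 to Myh6 log2 ratio difference, lowest minus highest cardiomyocyte band, was -0.93 on day 1 and 0.82, 2.40 and 0.20 on days 4, 7 and 14, so day 1 moved against the other 3 sections. Ranked on Tnnt2 alone the day 1 difference was 1.35, and on Actc1 alone it was -1.41. The highest band of day 1 held more Ankrd1 (4873 against 3467 CPM) and Nppb (1234 against 647 CPM) than the lowest, as on the other days. Mhrt had a log2 fold, lowest over highest cardiomyocyte band, of 0.0888 on day 1 and of -1.80, -3.81 and -0.59 on days 4, 7 and 14, and the day 1 value is within counting error of 0. Myh7b had a log2 fold, highest over lowest stress band, of -2.53, -0.87 and -0.41 on days 1, 4 and 7 and of 0.65 on day 14. With 1 mouse per day these differences between days were not tested.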

How the results depend on the processing

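The sections are single mice on different days, the lowest cardiomyocyte band of days 7 and 14 is shallow (medians of 2820 and 2478.5 UMIs per spot), and Mhrt, Gm31251 and Myh7b are sparse. Bands of the same section were paired by the section block in every main fit, and the labels give 1 sample per day, so no replicate numbers could pair days. No direction of a called member turned under any alternative run: of 200 comparisons of a member with its main value, 160 stayed on the same side of the threshold, 34 lost the call and 6 gained it.

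Genes called between the lowest and highest cardiomyocyte bands were 2761, and 4933 with a minimum of 10 UMIs, 1088 without the section block, 1744 when ranked on Actc1, 742 to 3016 when leaving out 1 section (742 without day 4, 907 without day 7) and 0 with edgeR on only the compared bands, where 1959 had an unadjusted p under 0.05. For the second against the highest band they were 0, and 3 with only the compared bands, 10 when ranked on Tnnt2 and 160 when ranked on Tnni3, Myl2 and Mb. For the third they were 0, and 11 with only the compared bands. Genes called between stress bands were 2329, and 3757 with a minimum of 10 UMIs, 1536 without the block, 1333 with only the compared bands, 1432 to 2440 when leaving out 1 section (1432 without day 4) and 63 when all spots were ranked by stress.

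The day 7 ratio of 0.155 was 0.151 without the hemoglobin filter and 0.179 with a limit of 0.5%. Of the 5 genes most like Myh6, Myh7 and Mhrt over spots, 3, 0 and 1 were among the 5 found by Pearson's r over 16 libraries. The rise of Myh7 under stress was called in 21 of 21 alternatives (1.32 to 2.06), the fall of Myh6 in 20, of Mhrt in 19 and of Gm31251 in 17. Rankings of stress over all spots and on Clu and Xirp2 were added after seeing the data, and the latter gave Myh7 1.58 (edgeR adjusted p = 0.00147). Clu was also among the 5 genes most like Myh7 over spots, so that ranking is no independent check.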

Other observations

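The skeletal muscle spots of day 7, 118 of 1848 spots, held 60560 CPM of 10 fast skeletal muscle genes, and the 10 genes together were at 4.43, 6.69 and 5.03 CPM in the whole sections of days 1, 4 and 14. Myh7 counted 186 UMIs in these spots, Mhrt 1, Myh7b 2 and Gm31251 0, which for Gm31251 allows up to 3 counts of the 489122 UMIs there.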
